A study of Mus musculus with 6 samples.

Results

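The hormone genes of the enteroendocrine cells were followed in mouse ileum, the final stretch of small intestine. The genes were chosen by name, with earlier results of these data known. They were Sst, Gcg, Pyy, Nts, Sct, Cck, Gip and Ghrl, which encode gut peptide hormones, and Chga and Chgb, which encode the granins of the hormone granule. Each of these 10 genes had 1 probe set annotated to it alone, so they were 10 of the 12393 genes with a probe set of their own and 10 of the 22626 probe sets that were not controls. Of the 10, 9 lay above a filter on low mean signal and entered the test across 13575 probe sets, and Ghrl did not.

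The 6 Affymetrix arrays formed 3 groups of 2. BDL_GW4064 mice had the common bile duct ligated and were gavaged with GW4064, which activates the nuclear receptor FXR (100 mg/kg/day, starting 2 days ahead of surgery and continuing 5 days afterwards). BDL_Vehicle mice had the ligation and vehicle. Sham_Vehicle mice had vehicle, and their duct was mobilized but not tied. All animals were wild type males aged 8 to 10 months, of mixed C57BL/6:129Sv strain. RNA came from ileum with no sorting of cells stated. Each group was assayed in duplicate, and nothing in the labels says that duplicates were separate mice, so p-values measure the spread between these arrays, which may be technical. GW4064 was analysed here only in ligated mice.

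Enteroendocrine cells are scattered singly through the gut epithelium and release peptide hormones from dense granules in answer to nutrients, bile acids and neighbouring cells. Somatostatin from D cells restrains the release of other gut hormones. L cells of the distal gut make the glucagon-like peptides, peptide YY and, in part, neurotensin, and bile acids are known to stimulate them through the membrane receptor GPBAR1, while FXR is also present there.

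As a check of the labels, the FXR target gene Fgf15 had signals of 972.1 and 809.6 in BDL_GW4064, 5.5 and 3.4 in BDL_Vehicle, and 316.2 and 479.6 in Sham_Vehicle. The arrays also differed in ways that the labels do not state, and the reasons were not tested. The control probe set for the 5' end of 18S rRNA read 8.6 to 13.3 in both BDL_GW4064 arrays and BDL_Vehicle replicate 2, against 67.3 to 88.7 in BDL_Vehicle replicate 1 and both Sham_Vehicle arrays, and the first principal component divided the arrays in the same way. These array sets nearly follow the groups, so only BDL_Vehicle, which has an array in each, separates them. Sham_Vehicle replicate 2 had an actin 3' to 5' ratio of 1.73, where the other arrays had 1.09 to 1.22. BDL_GW4064 replicate 2 carried much more muscle RNA, as described with the marker lists.

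Across the hormone and granin genes, 0 of the 9 tested passed the threshold in any comparison (limma, adjusted p of 0.05 over all probe sets tested). After ligation the share of all probe sets that passed was 0.0295%, with GW4064 it was 0.0516%, and between BDL_GW4064 and Sham_Vehicle it was 0.0368%. At an unadjusted p under 0.05, 3 of the 9 were lower after ligation (Sst, Nts and Sct), where 2.98% of all probe sets were. With GW4064, Sst alone was higher at that level, where 4.43% of all probe sets were. Between BDL_GW4064 and Sham_Vehicle, Sst, Gcg and Nts were lower, where 8.67% of all probe sets were. Both comparisons with Sham_Vehicle share its arrays, and both comparisons of ligated mice share BDL_Vehicle, so their values are not independent.

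**Figure D1:**
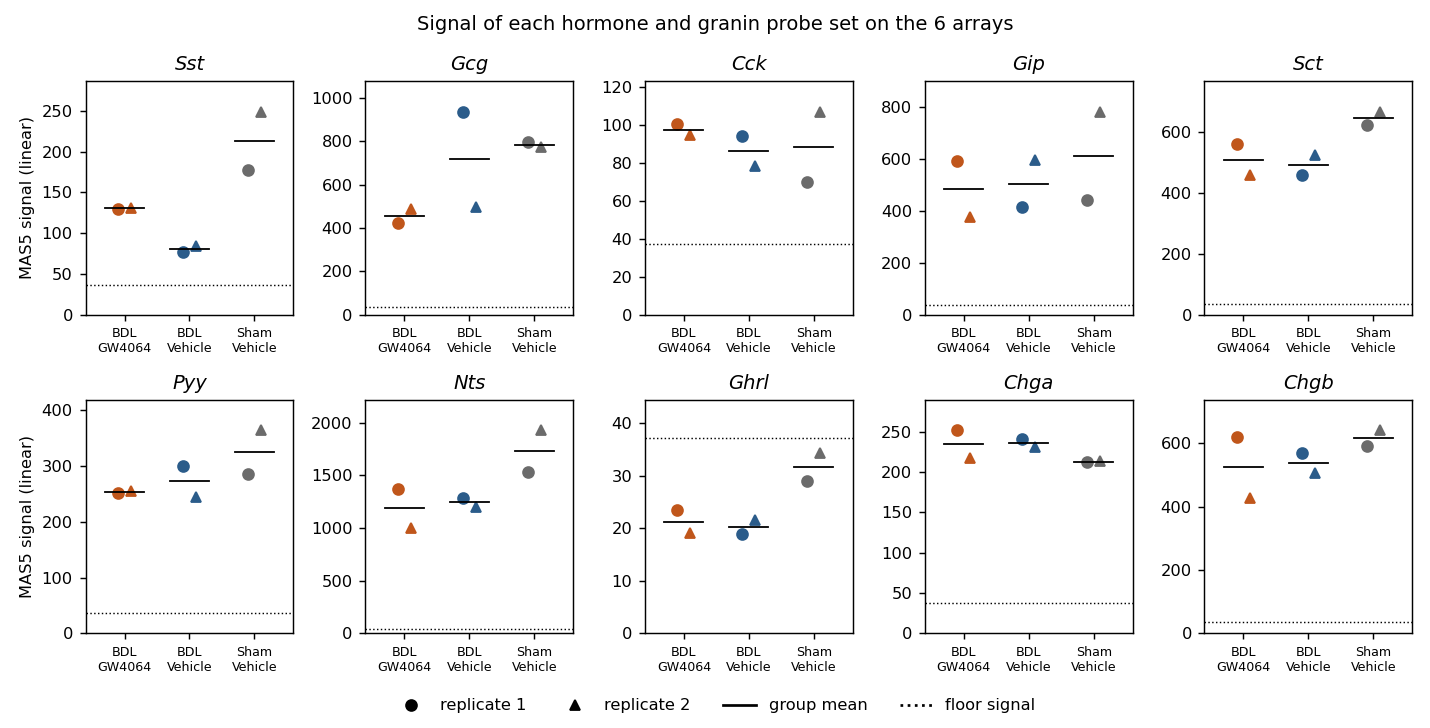
MAS5 signal (linear scale) of the 10 hormone and granin probe sets, 1 panel a gene, with BDL_GW4064, BDL_Vehicle and Sham_Vehicle from left to right. Points are arrays, bars are means of 2 arrays, and the dotted line is the floor of 37.1, below which a signal was treated as dim. Sst separates the 3 groups, Gcg splits the BDL_Vehicle arrays (937.8 and 499.0), and Ghrl stays under the floor.

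Somatostatin, the product of Sst, inhibits the release of many gut and pancreatic hormones. Sst had signals of 129.6 and 131.3 in BDL_GW4064, 76.6 and 84.9 in BDL_Vehicle, and 177.5 and 249.0 in Sham_Vehicle. The 3 groups did not overlap, with the lowest signals in BDL_Vehicle, intermediate ones in BDL_GW4064 and the highest in Sham_Vehicle. The mean was 80.8 ± 5.87 in BDL_Vehicle and 213.2 ± 50.6 in Sham_Vehicle (SD, n = 2 arrays each), which is 2.53-fold lower after ligation. On the scale of log2(signal + 4), which was used for all fold changes, this was a difference of -1.34 ± 0.20 (SE) with a 95% interval from -1.81 to -0.87 and a limma adjusted p of 0.2. It had the 13th smallest p of the 13575 probe sets (rank 13). With GW4064 the mean was 130.4 ± 1.2 in BDL_GW4064 (SD, n = 2 arrays) against the BDL_Vehicle mean above, a log2 difference of 0.67 ± 0.20 (SE, limma adjusted p = 0.445), or 1.59-fold higher. Set against Sham_Vehicle, BDL_GW4064 was 1.59-fold lower, at -0.67 ± 0.20 (SE, limma adjusted p = 0.21). The direction of Sst was the same within each array set. BDL_Vehicle replicate 1 was lower than the Sham_Vehicle arrays of its set by a log2 difference of -1.41, and the BDL_GW4064 arrays were above BDL_Vehicle replicate 2 by 0.60. The highest Sst signal belonged to Sham_Vehicle replicate 2, whose actin ratio was high. Without it the ligation difference was -1.10 and the difference between BDL_GW4064 and Sham_Vehicle was -0.43, over 1.5 times smaller than with it.

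The somatostatin promoter is a textbook site of the cAMP response element, the DNA sequence bound by the factor CREB. The promoter's sequence is shown with those of the granin genes, whose log2 differences were smaller in size than those of Sst in every comparison. The 250 bases before each gene's start are given from RefSeq (GRCm38.p6), 5' to 3' on the gene's strand, with matches to the element in capitals. The full element, TGACGTCA, reads the same on both strands and was matched in Sst and Chgb. Its short form, TGACG, searched on both strands, lies within the full element too, and it is the form in capitals for Chga. The windows are chr16:23890845-23891094 (minus strand) for Sst, chr2:132781392-132781641 (plus strand) for Chgb and chr12:102554691-102554940 (plus strand) for Chga.
Sst: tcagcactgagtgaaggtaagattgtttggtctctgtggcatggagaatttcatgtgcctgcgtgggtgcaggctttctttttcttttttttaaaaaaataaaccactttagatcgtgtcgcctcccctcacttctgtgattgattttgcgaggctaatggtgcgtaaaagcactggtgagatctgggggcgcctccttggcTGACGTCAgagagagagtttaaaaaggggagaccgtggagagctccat
Chgb: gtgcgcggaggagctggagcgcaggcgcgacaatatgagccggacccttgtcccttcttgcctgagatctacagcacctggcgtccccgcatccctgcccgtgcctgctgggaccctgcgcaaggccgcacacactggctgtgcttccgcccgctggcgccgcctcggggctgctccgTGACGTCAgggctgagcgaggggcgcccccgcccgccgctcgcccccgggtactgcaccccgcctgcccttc
Chga: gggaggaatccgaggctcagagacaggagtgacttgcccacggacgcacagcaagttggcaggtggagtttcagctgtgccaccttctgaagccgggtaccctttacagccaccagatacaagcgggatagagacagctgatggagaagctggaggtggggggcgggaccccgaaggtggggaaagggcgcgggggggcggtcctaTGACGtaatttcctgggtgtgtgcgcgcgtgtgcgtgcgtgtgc

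The full element began 48 bases before the start of Sst and 72 bases before that of Chgb, and 1.55% of all 32851 promoter windows of this length held it. The short form was also in the windows of Chga, Cck and Nts, and 17.8% of all windows held it. These matches are a description of the letters. Beside the values of Sst, Chgb had a log2 difference after ligation of -0.20 ± 0.19 (SE, limma adjusted p = 0.846).

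Gcg encodes proglucagon, from which L cells cut the glucagon-like peptides. Gcg had signals of 421.3 and 487.5 in BDL_GW4064, 937.8 and 499.0 in BDL_Vehicle, and 797.2 and 773.7 in Sham_Vehicle. The BDL_Vehicle arrays lay on both sides of the Sham_Vehicle ones and were 1.88-fold apart, the widest gap within a group among the 9 tested genes. The 3 highest signals were those of the arrays with high 18S signal and the 3 lowest those of the other arrays. For BDL_GW4064 and Sham_Vehicle the means were 454.4 ± 46.8 and 785.5 ± 16.6 (SD, n = 2 arrays each), 1.73-fold lower with ligation and GW4064, at a log2 difference of -0.79 ± 0.27 (SE, limma adjusted p = 0.238). With the array set as a term this difference was 0.12, so its sign turned. These 2 groups share no array set, so that value rests on the single BDL_Vehicle array in each set. After ligation the difference was -0.20 ± 0.27 (SE, limma adjusted p = 0.893), and it was 0.25 within the set of high 18S signal. With GW4064 it was -0.59 ± 0.27 (SE, limma adjusted p = 0.69), and -0.14 within the set of low 18S signal. Without BDL_Vehicle replicate 2 the GW4064 difference was -1.04, and without BDL_Vehicle replicate 1 the ligation difference was -0.65.

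Pyy encodes peptide YY, which slows gut transit and reduces appetite. Pyy had signals of 251.7 and 254.5 in BDL_GW4064, 300.1 and 244.8 in BDL_Vehicle, and 285.4 and 364.3 in Sham_Vehicle. Its means were lowest in BDL_GW4064 and highest in Sham_Vehicle, but both neighbouring pairs in this order overlapped. BDL_GW4064 differed from Sham_Vehicle by -0.34 ± 0.18 (SE, log2, limma adjusted p = 0.386), and by -0.06 with the array set as a term. Without Sham_Vehicle replicate 2 this was -0.17, and without Sham_Vehicle replicate 1 it was -0.52. Nts encodes neurotensin, which is released after fat and promotes its absorption. Nts had signals of 1375.4 and 1004.3 in BDL_GW4064, 1289.3 and 1201.1 in BDL_Vehicle, and 1530.5 and 1932.0 in Sham_Vehicle. Both ligated groups lay below both Sham_Vehicle arrays and overlapped each other. Nts had a log2 difference of -0.47 ± 0.18 (SE) after ligation, or 1.38-fold lower (limma adjusted p = 0.751). Against Sham_Vehicle, BDL_GW4064 was at -0.55 ± 0.18 (SE, limma adjusted p = 0.231), and against BDL_Vehicle at -0.08 ± 0.18 (95% interval -0.50 to 0.33). Its value within the set of high 18S signal was -0.41. Leaving out Sham_Vehicle replicate 2 gave -0.30 after ligation, over 1.5 times smaller, and leaving out BDL_GW4064 replicate 2 gave -0.32 for BDL_GW4064 against Sham_Vehicle.

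Secretin, the product of Sct, makes the pancreas and bile ducts secrete bicarbonate. Sct had signals of 559.6 and 456.7 in BDL_GW4064, 458.6 and 523.2 in BDL_Vehicle, and 621.0 and 665.7 in Sham_Vehicle. Both ligated groups lay below Sham_Vehicle and overlapped each other. The mean was 490.9 ± 45.7 in BDL_Vehicle and 643.4 ± 31.6 in Sham_Vehicle (SD, n = 2 arrays each), 1.31-fold lower after ligation, at -0.39 ± 0.15 on the log2 scale (SE, limma adjusted p = 0.751). Within the set of high 18S signal the value was -0.48. BDL_GW4064 and BDL_Vehicle differed by 0.05 ± 0.15 (SE), with an interval from -0.31 to 0.40, and this sign turned under median centring (-0.02).

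Gip and Cck, made mostly in the upper small intestine, had ligated and Sham_Vehicle groups that overlapped. Gip encodes an incretin of K cells, which raises insulin release after a meal. Gip had signals of 591.5 and 376.1 in BDL_GW4064, 414.3 and 595.4 in BDL_Vehicle, and 442.9 and 782.1 in Sham_Vehicle. All 3 groups overlapped, and replicates within a group differed by 1.44-fold to 1.77-fold. Its intervals were wide, from -0.99 to 0.50 after ligation and from -0.82 to 0.67 with GW4064. Cck encodes cholecystokinin, which contracts the gallbladder. Cck had signals of 100.4 and 94.9 in BDL_GW4064, 94.1 and 78.7 in BDL_Vehicle, and 70.3 and 107.2 in Sham_Vehicle. The Sham_Vehicle arrays bracketed those of both ligated groups, and BDL_GW4064 lay just above BDL_Vehicle (log2 difference 0.17 ± 0.24, SE, limma adjusted p = 0.945). The ligation difference of Cck was -0.01 ± 0.24 (SE, log2, interval -0.57 to 0.55), and its sign turned under quantile normalisation and median centring (0.04 in both). Ghrl encodes ghrelin, made mainly in the stomach. Ghrl had 23.4 and 19.1 in BDL_GW4064, 18.9 and 21.6 in BDL_Vehicle, and 29.1 and 34.4 in Sham_Vehicle. All of these lay under the floor of 37.1, so no fold is given for it.

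**Figure D2:**
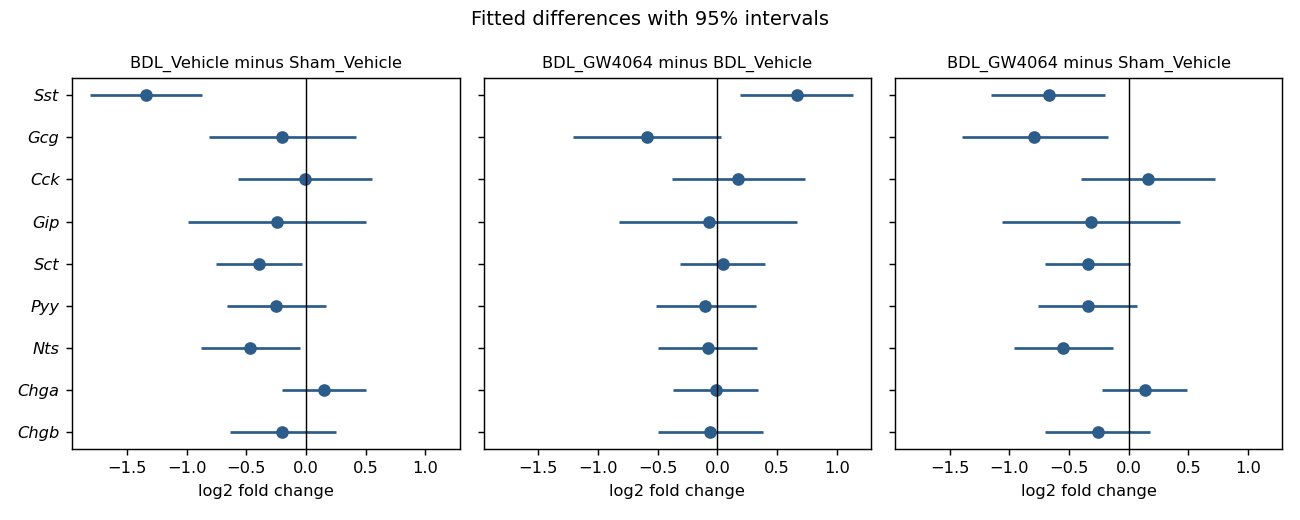
Fitted log2 differences (points) with 95% intervals (lines) of the 9 tested hormone and granin genes, 1 panel a comparison. The ligation interval of Sst, from -1.81 to -0.87, lies farthest from 0, and the intervals of Chga, Chgb, Cck, Gip and Pyy include 0 in all 3 panels.

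The granins are acidic proteins that help to form the hormone granule and are general markers of endocrine cells. Chga, chromogranin A, had signals of 251.9 and 217.6 in BDL_GW4064, 241.4 and 231.4 in BDL_Vehicle, and 211.9 and 213.3 in Sham_Vehicle. It was the tested gene with the narrowest range, since its highest signal was 1.19-fold above its lowest, and both ligated groups lay above Sham_Vehicle. Its log2 difference was 0.15 ± 0.15 after ligation (SE, limma adjusted p = 0.851) and -0.01 ± 0.15 with GW4064 (SE, limma adjusted p = 0.996). The 95% interval after ligation ran from -0.20 to 0.50. Chgb, chromogranin B, had signals of 621.2 and 426.7 in BDL_GW4064, 569.6 and 507.9 in BDL_Vehicle, and 592.2 and 642.3 in Sham_Vehicle. BDL_Vehicle lay below Sham_Vehicle without overlap, BDL_GW4064 overlapped both, and the Chgb differences were -0.20 ± 0.19 after ligation and -0.06 ± 0.19 with GW4064 (SE, log2).

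Counting arrays without overlap, 4 of the 9 tested genes lay below Sham_Vehicle after ligation (Sst, Nts, Sct and Chgb), where 18.7% of all probe sets did, and Chga lay above it, where 18.2% did. With GW4064, Sst and Cck lay above BDL_Vehicle, where 17.4% of all probe sets did, and Gcg below it, where 18.1% did. Between BDL_GW4064 and Sham_Vehicle, 5 of the 9 lay below (Sst, Gcg, Sct, Pyy and Nts), where 26.3% did, and Chga above, where 23.8% did. The median log2 difference of the 9 was -0.24 after ligation, -0.06 with GW4064 and -0.34 between BDL_GW4064 and Sham_Vehicle. The median over all 7919 genes tested was -0.01, 0.00 and 0.01 in the same comparisons. After ligation 8 of the 9 had a value below 0, where 51.7% of all probe sets did. With GW4064 it was 6 of the 9, where 52.1% did, and for BDL_GW4064 against Sham_Vehicle 7 of the 9, where 49.8% did. These medians and counts take no account of the array sets, and the 8 include Cck at -0.01. With the array set as a term, Gcg (0.25) and Cck (0.11) lay above 0 after ligation. Gcg (0.12) also did between BDL_GW4064 and Sham_Vehicle. The genes also varied together over the 6 arrays (Pearson r of 0.89 for Sct and Nts), so they are not independent counts.

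The number of hormone cells and the RNA per cell cannot be told apart in whole tissue. The hormone genes were also set against Chga within each array, which does not separate the 2. Whether Chga follows the number of these cells was not tested. Sst minus Chga, in log2 signal, was -0.94 and -0.71 in BDL_GW4064, -1.61 and -1.40 in BDL_Vehicle, and -0.25 and 0.22 in Sham_Vehicle. The groups remained apart in the same order as for Sst itself. Sct minus Chga was 1.14 and 1.06 in BDL_GW4064, 0.91 and 1.16 in BDL_Vehicle, and 1.53 and 1.62 in Sham_Vehicle. Nts minus Chga was 2.43 and 2.19 in BDL_GW4064, 2.40 and 2.36 in BDL_Vehicle, and 2.83 and 3.16 in Sham_Vehicle. For Sct and Nts the ligated groups overlapped each other and lay below Sham_Vehicle. Chga itself lay above Sham_Vehicle in both ligated groups, which widens these gaps. Against Chgb, a base chosen after the data were seen, Sst was -2.23 and -1.67 in BDL_GW4064, -2.83 and -2.53 in BDL_Vehicle, and -1.72 and -1.35 in Sham_Vehicle. BDL_Vehicle was then still the lowest, but BDL_GW4064 overlapped Sham_Vehicle. Sct minus Chgb was -0.15 and 0.10 in BDL_GW4064, -0.31 and 0.04 in BDL_Vehicle, and 0.07 and 0.05 in Sham_Vehicle, so BDL_GW4064 was no longer below Sham_Vehicle. Nts minus Chgb was 1.14 and 1.23 in BDL_GW4064, 1.17 and 1.24 in BDL_Vehicle, and 1.36 and 1.58 in Sham_Vehicle, still lower in both ligated groups. These ratios show unequal differences between genes of 1 array, and no test was run on them.

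**Figure D3:**
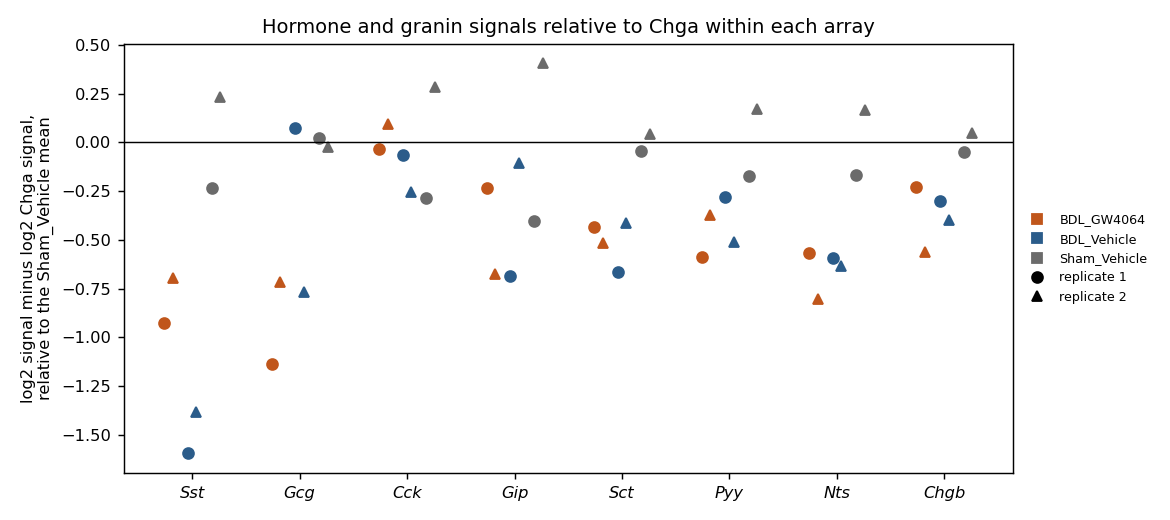
Log2 signal minus that of Chga within each array, relative to the Sham_Vehicle mean, for 7 hormone genes and Chgb. Colours give the group, with BDL_GW4064, BDL_Vehicle and Sham_Vehicle from left to right within each gene, and shapes give the replicate. Sst lies lowest in BDL_Vehicle, and Gcg has 1 BDL_Vehicle array with the Sham_Vehicle arrays and 1 with the BDL_GW4064 arrays.

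Genes that process and store hormones showed 0 members past the threshold in each comparison. Of 31 listed, 12 were tested, and 11 of these were lower after ligation with a median log2 difference of -0.22. Among all genes tested, 4129 of 7919 were lower after ligation, with a median of -0.01. Ptprn, a membrane protein of dense granules, had 29.8 and 42.6 in BDL_Vehicle, against 111.2 and 55.3 in Sham_Vehicle, without overlap (log2 difference -1.06 ± 0.38, SE, limma adjusted p = 0.751). The granin gene Scg2 had 35.4 and 32.8 in BDL_Vehicle, against 56.9 and 60.7 in Sham_Vehicle (-0.72 ± 0.35, SE, limma adjusted p = 0.751). Both BDL_Vehicle signals of Scg2, and the 29.8 of Ptprn, lay under the floor of 37.1. Slc18a1, which loads amines into granules, differed by -0.20 ± 0.19 (SE) and Pam, the enzyme that amidates peptide hormones, by -0.53 ± 0.29 (SE). With GW4064, 8 of the 12 were higher, with a median of 0.30, which was 0.18 without BDL_GW4064 replicate 2. Among all genes tested, 3991 of 7919 were higher with GW4064, with a median of 0.00. The carboxypeptidase gene Cpe had 336.5 and 743.7 in BDL_GW4064, against 174.3 and 156.3 in BDL_Vehicle (1.58 ± 0.38, SE, limma adjusted p = 0.346). Pam had 314.3 and 354.8 in BDL_GW4064, against 105.7 and 205.1 in BDL_Vehicle (1.16 ± 0.29, SE, limma adjusted p = 0.349). Scg2 (0.68 ± 0.35, SE) and the syntaxin gene Stx1a (0.39 ± 0.23, SE) followed. Cpe, Pam, Scg2 and Stx1a were each higher in BDL_GW4064 replicate 2, the array with the most smooth muscle and neuron marker signal, than in replicate 1. Fibroblast markers moved with both arrays of the group, summing to 2534.7 and 3537.8 in BDL_GW4064, against 900.1 and 1277.1 in BDL_Vehicle, and their part in the values of Cpe and Pam was not tested. Against Sham_Vehicle, the BDL_GW4064 median of this list was -0.05, with Cpe at 1.29 ± 0.38, Pam at 0.62 ± 0.29, the calcium binding protein gene Scgn at -0.43 ± 0.26 and the prohormone protease gene Furin at -0.35 ± 0.23 (SE, log2).

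Factors of enteroendocrine fate also had 0 members past the threshold. Of 32 listed, 11 were tested, and 10 of these were lower after ligation, with a median of -0.22. Among all genes tested, 4129 of 7919 were. The other 16 with a probe set were below the filter, and the highest single signal among them was 46.6. They included Neurog3, Pax4, Pax6, Insm1 and Isl1, so the counts and medians do not cover these genes. The 11 tested also include Hes1, which opposes the secretory fate. A lower value therefore does not have the same meaning for every gene of the list. Between BDL_GW4064 and Sham_Vehicle all 11 had a fitted value below 0, although the receptor gene Notch2 rounded to 0.00, with a median of -0.30. In that comparison 3819 of all 7919 genes tested were lower, with a median of 0.01. Neurod1, which acts late in the endocrine lineage, had 42.5 and 39.9 in BDL_GW4064, 60.8 and 38.0 in BDL_Vehicle, and 60.8 and 93.4 in Sham_Vehicle. It differed by -0.61 ± 0.31 after ligation (SE, limma adjusted p = 0.751) and by -0.81 ± 0.31 between BDL_GW4064 and Sham_Vehicle (SE, limma adjusted p = 0.273). Its signals of 38.0, 39.9 and 42.5 lay close to the floor of 37.1. The forkhead gene Foxa3 had 172.7 and 162.0 in BDL_GW4064, 186.2 and 184.1 in BDL_Vehicle, and 250.1 and 218.6 in Sham_Vehicle, so its 3 groups did not overlap. Its log2 differences were -0.33 ± 0.16 after ligation and -0.47 ± 0.16 between BDL_GW4064 and Sham_Vehicle (SE). Atoh1, which sets the secretory lineage, differed by -0.22 ± 0.17 after ligation and the Notch ligand gene Dll1 by -0.23 ± 0.22 (SE). With GW4064 the list's median was -0.14, with Hes1, a Notch target that opposes the secretory fate, at -0.32 ± 0.21, Dll1 at -0.34 ± 0.22 and Foxa1 at -0.23 ± 0.18 (SE). Once the fit held a term for the array set, the fate factor median was 0.00 after ligation, 0.11 with GW4064, where the sign turned, and 0.04 between BDL_GW4064 and Sham_Vehicle, where it turned too.

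**Figure D4:**
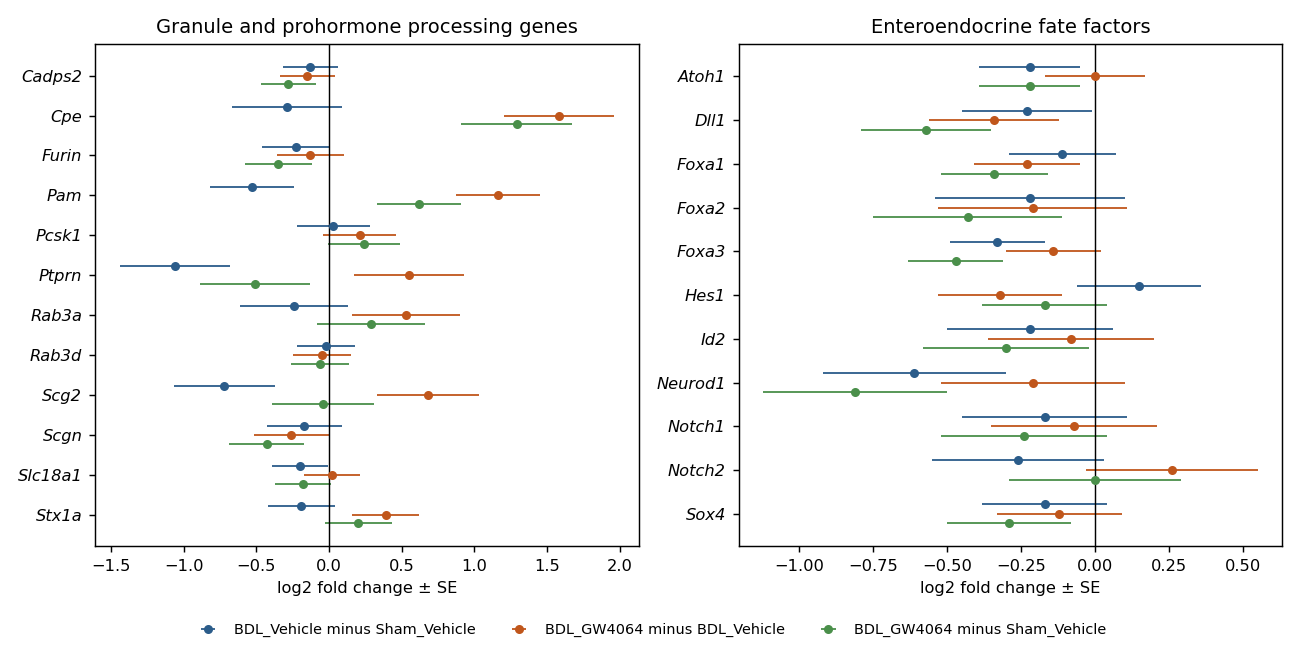
Log2 differences (points) ± SE of the tested genes that process and store hormones (left) and of the tested fate factors (right), with the 3 comparisons in colour. Cpe and Pam have the largest positive values with GW4064, 1.58 and 1.16, and most fate factors lie left of 0.

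Other lists told little about the hormones. Of 26 further enteroendocrine products, 3 were tested, and 0 passed in any comparison. The amine synthesis gene Ddc differed by -0.17 ± 0.19 after ligation, the tachykinin gene Tac1 by -0.28 ± 0.33 and the serotonin synthesis gene Tph1 by -0.08 ± 0.32 (SE, log2). Receptors for the hormones were mostly dim. Of 22 listed, 2 were tested, the neurotensin-binding sorting receptor gene Sort1 (-0.18 ± 0.16 after ligation, SE) and Dpp4, the protease that inactivates incretins (0.02 ± 0.14, SE). The other 15 with a probe set were below the filter, and the highest single signal among them was 41.5. Of 35 sensors of nutrients and bile acids, 15 were tested and 0 passed. The FXR gene Nr1h4 had 319.3 and 274.7 in BDL_GW4064, against 539.8 and 423.8 in BDL_Vehicle (-0.68 ± 0.20, SE, limma adjusted p = 0.426). The peptide transporter gene Slc15a1 had 376.6 and 274.1 in BDL_GW4064, 521.9 and 438.8 in BDL_Vehicle, and 590.4 and 628.9 in Sham_Vehicle, so its 3 groups did not overlap, and BDL_GW4064 differed from Sham_Vehicle by -0.91 ± 0.18 (SE, limma adjusted p = 0.176). Gpbar1 had no probe set of its own and was not analysed here.

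The tissue was checked with marker lists. Of 9 stomach markers with a probe set, 8 were under the floor on all arrays, and so were 8 of 10 colon markers and 8 of 12 pancreas markers. The other colon markers were bright, Car4 at 835.9 to 1336.5 and Slc26a3 at 518.3 to 1823.0. Of 6 markers of duodenum and jejunum, 4 were above the floor on all arrays and 0 were under it on all. Of these, Lct, Fabp1 and Apoa4 are also in the enterocyte list, and Gata4 read 159.6 to 266.9. Of 6 ileal markers, 5 were above the floor on all arrays, and the other was Fgf15. The 10 hormone and granin genes summed to 3468.7 to 4326.0 in BDL_GW4064, 3988.0 to 4400.7 in BDL_Vehicle and 4758.0 to 5764.0 in Sham_Vehicle, with the lowest sum in BDL_GW4064 replicate 2. Nts, at 1004.3 to 1932.0, was the largest part of this sum, and Sst read 76.6 to 249.0. Chga went the other way, so the sum does not stand for each gene. Smooth muscle markers (9 of 9 with a probe set) summed to 1027.4 to 12097.0 in BDL_GW4064, 545.3 to 832.5 in BDL_Vehicle and 861.0 to 1005.6 in Sham_Vehicle, and the value of 12097.0 was that of replicate 2. Enteric neuron markers (14 of 16) summed to 138.7 to 528.3 in BDL_GW4064, 166.2 to 188.2 in BDL_Vehicle and 191.0 to 209.4 in Sham_Vehicle, again highest in replicate 2, and 7 of the 14 were under the floor on all arrays. B and T cell markers (8 of 9) reached 4337.6 in BDL_GW4064 replicate 1 and 964.0 in replicate 2, against 770.7 to 1253.3 in BDL_Vehicle and 831.5 to 1180.2 in Sham_Vehicle. Ighm alone read 3630.0 in BDL_GW4064 replicate 1, against 210.4 to 532.1 on the other arrays. No other marker of this list had its highest signal in that replicate, so the high sum was that of Ighm. Of these lists' genes, 0 were listed at a signal of 0 on all arrays. Nts, Chgb, Gip and Sct each had their lowest signal of the 6 arrays in BDL_GW4064 replicate 2. The sum of fibroblast markers (7 of 7 with a probe set) was higher in both BDL_GW4064 arrays than on any other array, at 2534.7 and 3537.8, against 900.1 to 1277.1 in BDL_Vehicle and 919.7 to 1509.8 in Sham_Vehicle. The sum of macrophage markers (7 of 8) was too, at 2783.5 and 2512.2 in BDL_GW4064, against 1702.7 to 2254.5 in BDL_Vehicle and 1403.8 to 1632.9 in Sham_Vehicle. Not every gene followed its sum. Lum had 32.9 in BDL_GW4064 replicate 1, against 42.5 in Sham_Vehicle replicate 1. Adgre1 (55.9 and 68.5 in BDL_GW4064) and Lyz2 (988.3 in its replicate 2) lay below BDL_Vehicle replicate 1 (71.1 and 1126.0). The part of these cells in the hormone values was not tested. Without BDL_GW4064 replicate 2, the difference of BDL_GW4064 against Sham_Vehicle was -0.68 for Sst, -0.32 for Nts, -0.20 for Sct and 0.01 for Chgb. Enterocyte markers (9 of 11) summed to 35980.1 to 40765.2 in BDL_GW4064, 34190.5 to 39531.1 in BDL_Vehicle and 36965.8 to 38629.2 in Sham_Vehicle, so these ranges overlapped.

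**Figure D5:**
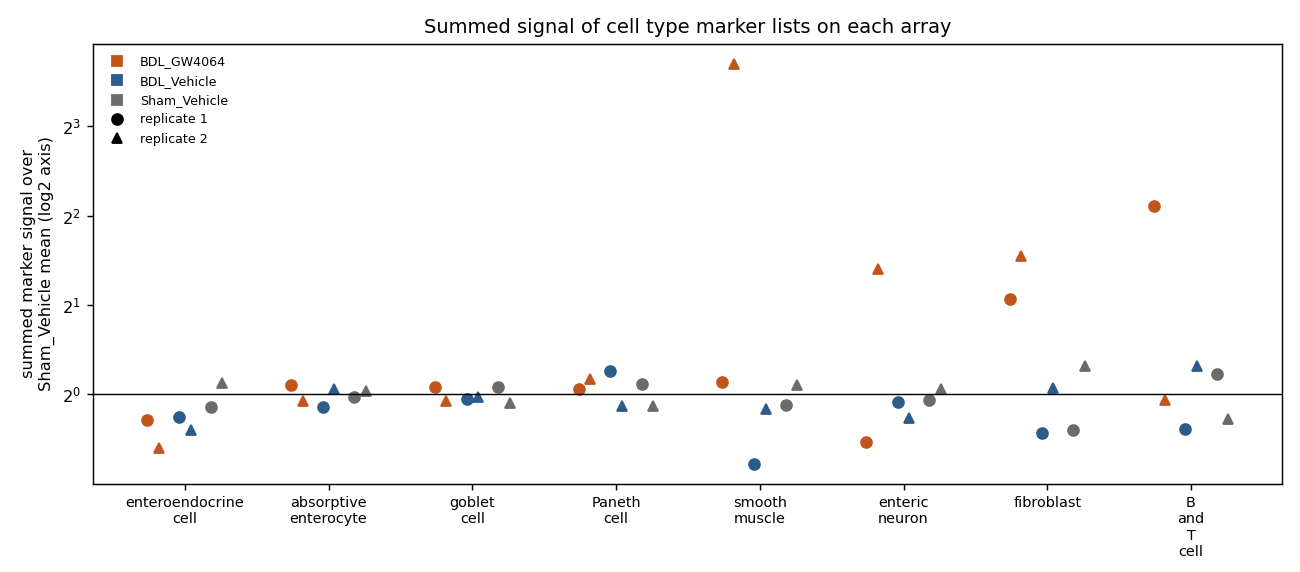
Summed signal of each marker list on each array, divided by its Sham_Vehicle mean, on a log2 axis. Colours give the group, with BDL_GW4064, BDL_Vehicle and Sham_Vehicle from left to right within each list, and shapes give the replicate. BDL_GW4064 replicate 2 stands out for smooth muscle (12097.0). Replicate 1 stands out for the B and T cell list (4337.6), through the single gene Ighm (3630.0). Both BDL_GW4064 arrays lie above the rest for fibroblasts (2534.7 and 3537.8), and enterocyte, goblet and Paneth lists stay near 1.

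The genes with the most similar pattern to each member over the 6 arrays were found among 7303 genes above the floor on all arrays, as a description with no test. These arrays share group, array set and tissue makeup, and the number of genes with a Pearson r above 0.95 ran from 2 for Cck to 89 for Gcg among the 9 tested members. Sst was matched most closely by Gng11, a G protein gamma subunit gene (r = 0.992), which had 208.6 and 189.4 in BDL_GW4064, 139.4 and 147.7 in BDL_Vehicle, and 241.6 and 328.7 in Sham_Vehicle, and next by Pias1 (r = 0.990). The closest to Gcg were Ciao2a (0.990) and Usp33 (0.989), and to Pyy Cbll1 (0.997) and Adam9 (0.992). For Nts they were Zfand6 (0.989) and Golga4 (0.989), for Sct Dmxl1 (0.980) and Gdpd3 (0.980), for Gip Adap2 (0.992) and Synj2bp (0.987), and for Cck Zmym1 (0.961) and Phc2 (0.956). Chga was closest to Gmppb (0.982) and Ost4 (0.968), and Chgb to Fam114a2 (0.988) and Rnf123 (0.964).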

How the data were processed

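The deposited values were intensity values, 1 per probe set and array, on a linear scale, made by the authors with MAS5, per the submitters' processing notes. MAS5 settings and detection calls are not given in the sources used here. RNA (5 µg) was labelled in batches, per the labels' protocols, and which array fell in which batch is not given. After trimming 2% at each end, every array had a mean of 200.0, so the arrays had been scaled before deposit. For arrays, their number limits the precision.

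Of 22690 probe sets, 64 controls were left out. The annotation gave a single gene for 20380 of the others, more than 1 for 691 (not named) and no gene for 1555. Symbols came from the platform annotation. Signals were analysed as log2(signal + 4), where 4 was the rounded 10th percentile of all signals (3.9), which understates changes of dim genes. The dimmest 40%, by mean over all arrays, were dropped (13575 remained), and the bound, a signal of 37.1, served as the floor.

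Differences were tested with limma 3.58.1 (R 4.3.3) on all 6 arrays, with a mean for each group, 3 residual degrees of freedom, a prior of 4.71 that followed signal, and Benjamini-Hochberg adjustment over 13575 probe sets at 0.05. In 20 simulations of the ligation comparison with 200 of 13575 probe sets changed, 66.2% of those set at 2-fold were called, as were 98.8% at 4-fold and 99.9% at 8-fold. Of the calls, 7.33% were false. The simulated noise was independent between probe sets, with the fitted spread and no difference of array set or tissue makeup. These shares therefore do not give the power of the real comparison. A listed gene was represented by its probe set of highest mean signal. The named genes were the 10 hormone and granin genes, up to 4 genes of smallest p in each list and comparison, the 2 genes most similar to each member, and Fgf15, Nr0b2 and Fabp6. The genes and lists were chosen with earlier results of these data known. The array set (18S 5' signal above or below the floor) was known from those results too. Deviations of same-numbered replicates correlated at 0.037, -0.119 and 0.094 between groups, so the numbers were not taken as pairs.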

Additional observations from a re-analysis of the deposited data

How the results depend on the processing

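Of the 9 tested hormone and granin genes, 0 passed the threshold under any alternative run in any comparison. For Sst, in the runs that kept both arrays of each group compared, the limma adjusted p after ligation was 0.183 (robust prior) to 0.751 (array set as a term). It was no lower than 0.427 with GW4064 and 0.189 between BDL_GW4064 and Sham_Vehicle. Among these runs it was highest with the array set as a term in every comparison. Over all alternatives the Sst differences ranged from -1.58 to -1.10, 0.60 to 0.74 and -0.91 to -0.43, without a change of sign. A term for the array set turned the sign of Gcg (0.25 after ligation and 0.12 between BDL_GW4064 and Sham_Vehicle) and Cck (0.11 after ligation), and with GW4064 of Sct (-0.05), Pyy (0.05), Chga (0.02) and Chgb (0.02). After ligation and with GW4064, this term gave the same differences as leaving out 1 BDL_Vehicle array, so it is not a separate check. Normalisation turned Cck after ligation (0.04 under quantile normalisation and 0.04 under median centring) and Sct with GW4064 (-0.02 under median centring). Leaving out 1 array in turn turned signs within these ranges. After ligation they were -0.65 to 0.25 for Gcg, -0.30 to 0.28 for Cck and -0.65 to 0.16 for Gip. With GW4064 they were -0.40 to 0.25 for Gip, -0.10 to 0.19 for Sct, -0.24 to 0.05 for Pyy, -0.31 to 0.14 for Nts, -0.12 to 0.09 for Chga and -0.33 to 0.21 for Chgb. Between BDL_GW4064 and Sham_Vehicle they were -0.13 to 0.45 for Cck, -0.72 to 0.09 for Gip and -0.53 to 0.01 for Chgb. The cause was not tested.

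Counts of all probe sets called were 4 after ligation, 7 with GW4064 and 5 between BDL_GW4064 and Sham_Vehicle. Without the filter they were 2 after ligation and 4 with GW4064, and without the signal trend 1, 2 and 0 in the same order. The robust prior gave 12 with GW4064, and median centring gave 3 between BDL_GW4064 and Sham_Vehicle. The replicate block gave 2, 4 and 0, and the array set as a term gave 2 with GW4064 and 0 between BDL_GW4064 and Sham_Vehicle. Beside the counts of 0 from limma, 2055 (no trend), 1936 (replicate block) and 436 (array set) probe sets had an unadjusted p under 0.05. Leaving out 1 array gave 1 to 3 calls after ligation, 2 to 48 with GW4064 and 0 to 29 between BDL_GW4064 and Sham_Vehicle. The replicate block changed no call of a hormone gene.

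Among list medians, the array set as a term moved other enteroendocrine products to 0.15, 0.37 and 0.52 and fate factors to 0.00, 0.11 and 0.04 in the same order of comparisons. It moved sensors to 0.00 after ligation and -0.11 between BDL_GW4064 and Sham_Vehicle, and receptors to -0.02 there. Leaving out 1 array gave medians after ligation of -0.36 to 0.15 for other products, -0.41 to 0.00 for fate factors and -0.10 to 0.08 for sensors. With GW4064 it gave -0.32 to 0.37 for other products, -0.34 to 0.11 for fate factors and -0.12 to 0.00 for sensors. For BDL_GW4064 against Sham_Vehicle it gave -0.20 to 0.13 for the processing and storage genes and -0.16 to -0.04 for sensors.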

Other observations

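Markers of tuft cells, another scattered secretory cell of the epithelium, summed to 184.4 to 349.7 in BDL_GW4064, 174.6 to 200.8 in BDL_Vehicle and 301.7 to 579.6 in Sham_Vehicle (7 of 8 with a probe set). The ligated groups overlapped each other, BDL_Vehicle lay below Sham_Vehicle, and 3 of the 7 genes were under the floor on all arrays. No test was run on this sum.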
